A study of Homo sapiens with 6 samples.

Results

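Matrix metalloproteinases (MMPs), ADAMTS proteases and their tissue inhibitors (TIMPs) were examined for histone methylation in G401 cells, a line of malignant rhabdoid tumor that lacks SMARCB1. Genes were taken from the ChIP-seq count table by name, as MMP with a number and an optional A or B, ADAMTS with a number, or TIMP1 to TIMP4, and had to have reads in the input libraries. Of 56638 genes in the table, 47 had such a name and 40 of these had input counts. They were 20 MMP genes, 19 ADAMTS genes and TIMP2. The other 7 names were MMP1, MMP10, MMP11, MMP24, TIMP1, TIMP3 and TIMP4.

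The study asked what PRC2 inhibition changes in sensitive tumor cells. G401 cells were treated for 3 days with DMSO, the solvent control, or with 3 µM MAK683, a compound that binds the EED subunit of PRC2. All cells were of the same line and carried the same loss of SMARCB1, and SMARCB1 itself had 0 input counts in both treatments. H3K27me3, H3K4me3 and input, the chromatin before immunoprecipitation, were each sequenced as 1 library per treatment. No value therefore had a replicate, no p-value was computed, and every difference compares 2 libraries.

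MMPs are zinc proteases that cut collagens, gelatin, proteoglycans and other matrix proteins. They are made as inactive proenzymes and are held in check by TIMPs, which block the active site. ADAMTS proteases are secreted relatives with thrombospondin repeats and cut proteoglycans such as aggrecan and versican, procollagens, or single substrates such as von Willebrand factor. H3K27me3 is deposited by PRC2 over silent developmental and lineage genes, and H3K4me3 lies at the start sites of active and poised genes.

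Counts were given per gene, over hg19, as whole numbers. A level is the CPM of a modification (its count scaled to the library total) divided by the CPM of the input of the same treatment. This corrects for the input reads of a longer span. A modification confined to a start site, such as H3K4me3, is still diluted in a long gene. Levels are given as times input or as log2 values. Genes were called high from 1.5 times input, among genes with at least 100 input counts in both treatments together. A change is the CPM in MAK683 over that in DMSO and was called from 25% higher or 20% lower, among genes with at least 100 counts of the modification in both libraries together. Intervals are exact 95% Clopper-Pearson intervals and cover counting error only. Of the 40 genes, 38 passed the minimum for input and for H3K27me3, and 37 passed it for H3K4me3. MMP23B (21 input counts in all) and MMP23A (3 input counts) did not pass, and MMP3 had 97 H3K4me3 counts. Library totals lay between 13308099 and 21281877 counts, so that 3 counts stood for 0.141 to 0.225 CPM. The 38 genes spanned 7.53 to 371 kb and had 1.48 to 14.0 input counts per kb in DMSO (median 11.7). The counts carry no spike-in scaling, so they give the spread of each library's reads over genes, and a global loss or gain of a modification does not appear in them. The paper, which describes a Drosophila spike-in, reports a massive loss of H3K27me3 across the genome of G401 cells after MAK683. Higher or kept levels below are therefore relative to each library and are not absolute amounts.

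The promoters differed widely in CG content, the dinucleotide of CpG islands. RefSeq promoter windows of 300 bases (250 before and 50 after a transcription start, taken from GRCh38.p14 gene models and placed on GRCh37 by an exact match) were given for 21 of the 40 genes. The letters CG were searched in each window, where they read the same on both strands. Among 35116 windows of all genes the median was 14 CG, and 48.9% held 15 or more. The 4 windows below are shown because they span this range across levels of the modifications described further on. CG is in capitals, and each is read 5′ to 3′ on the strand of its gene. ADAMTS18 (chr16:77468882-77469181, minus strand) held 30 CG and its gene was high in H3K27me3. ADAMTS2 (chr5:178772413-178772712, minus strand) held 47 CG, the most of these genes. MMP15 (chr16:58059408-58059707, plus strand) held 39 CG and its gene was high in H3K4me3. MMP8 (chr11:102595636-102595935, minus strand) held only 2 CG and its gene was high in H3K27me3.
ADAMTS18: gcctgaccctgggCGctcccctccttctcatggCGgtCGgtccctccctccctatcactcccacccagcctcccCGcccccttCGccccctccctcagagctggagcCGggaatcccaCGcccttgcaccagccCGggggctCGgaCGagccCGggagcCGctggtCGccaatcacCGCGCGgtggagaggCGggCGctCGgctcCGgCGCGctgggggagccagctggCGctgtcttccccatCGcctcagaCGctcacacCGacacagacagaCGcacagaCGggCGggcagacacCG
ADAMTS2: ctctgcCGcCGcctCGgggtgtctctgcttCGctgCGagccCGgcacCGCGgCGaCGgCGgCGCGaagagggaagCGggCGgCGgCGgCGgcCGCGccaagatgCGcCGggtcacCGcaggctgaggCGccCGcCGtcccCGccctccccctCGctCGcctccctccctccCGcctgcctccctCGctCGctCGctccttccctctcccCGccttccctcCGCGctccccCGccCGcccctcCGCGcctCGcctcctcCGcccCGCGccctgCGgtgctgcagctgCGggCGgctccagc
MMP15: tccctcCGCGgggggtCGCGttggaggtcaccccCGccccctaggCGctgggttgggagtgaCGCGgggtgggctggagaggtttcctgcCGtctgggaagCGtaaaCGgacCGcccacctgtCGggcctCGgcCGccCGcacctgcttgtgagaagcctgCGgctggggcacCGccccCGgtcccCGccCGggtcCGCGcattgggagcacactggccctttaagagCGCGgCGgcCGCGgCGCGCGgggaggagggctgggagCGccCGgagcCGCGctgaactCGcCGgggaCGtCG
MMP8: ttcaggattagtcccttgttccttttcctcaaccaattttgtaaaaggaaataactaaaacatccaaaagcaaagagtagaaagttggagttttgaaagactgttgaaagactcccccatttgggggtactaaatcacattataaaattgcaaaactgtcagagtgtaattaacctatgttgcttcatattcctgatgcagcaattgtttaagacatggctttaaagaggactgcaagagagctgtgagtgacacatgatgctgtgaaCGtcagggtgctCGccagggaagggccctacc

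In DMSO, H3K27me3 was at least 1.5 times input at 14 of the 38 genes, against 18.5% of 21263 genes tested. H3K4me3 was at least 1.5 times input at 7 of the 38 genes, against 31.6% of all genes. The 38 genes and all genes were not matched for length. The median log2 level of H3K27me3 was 0.048 over the 38 genes and -0.75 over all genes. The median log2 level of H3K4me3 was -0.64 and -0.25, respectively. Only MMP17 was high in both, 13 genes were high in H3K27me3 alone, 6 in H3K4me3 alone and 18 in neither. Over all genes these shares were 1.05%, 17.4%, 30.5% and 51.0%. In MAK683, 10 genes were high in H3K27me3 against 15.9% of all genes, and 7 were high in H3K4me3 against 30.4%. The 38 genes kept much of their order between treatments (Spearman rho 0.92 for H3K27me3 and 0.86 for H3K4me3). These are correlations across genes that share libraries, given as a description. The levels of both modifications are plotted by enzyme group.

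The gelatinases MMP2 and MMP9 degrade denatured collagen and the type IV collagen of basement membranes. MMP2 (chromosome 16, 55423612 to 55540603, plus strand) had 1042 counts of input in the DMSO library and 1218 in that of MAK683. In the same order it had 2942 and 1729 of H3K27me3, and 810 and 940 of H3K4me3. Its H3K27me3 was 2.48 times input in DMSO (interval 2.31 to 2.66), the third highest of the 38 genes, and 2.08 times in MAK683 (1.93 to 2.24). Its span in the annotation used here is 117 kb, of which 67.3% is not shared with other genes. The level covers this whole span and does not resolve the promoter of MMP2. MMP9 was far from this. It had 49 and 62 input counts, 52 and 57 of H3K27me3, and 54 and 86 of H3K4me3. H3K27me3 at MMP9 was 0.932 times input in DMSO and 1.35 times in MAK683, and both intervals included 1 (0.619 to 1.41 and 0.924 to 1.96).

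Among the collagenases, MMP8 of neutrophils had 342 and 199 counts of H3K27me3, or 1.94 and 1.42 times input. MMP13, which cuts cartilage collagen, had 202 and 133 counts, or 1.08 and 0.986 times input. Both were low in H3K4me3, with 0.705 times input at MMP8 and 0.337 at MMP13 in DMSO. MMP3, stromelysin 1, cleaves proteoglycans and activates other MMPs. It had 169 and 78 H3K27me3 counts and 33 and 64 H3K4me3 counts, with 94 and 60 input counts. H3K27me3 at MMP3 was thus 1.58 times input in DMSO and 1.90 in MAK683, with wide intervals (1.22 to 2.06 and 1.34 to 2.72). The matrilysins lack the hemopexin domain of other MMPs. MMP26 was high in H3K27me3 (5338 and 3408 counts, 1.61 and 1.44 times input), and MMP7 had 122 and 111 counts, or 0.879 and 1.15 times input.

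The membrane-type MMPs are held at the cell surface, and MMP14 activates the MMP2 proenzyme there. Of the 5 measured, 4 were at least 1.5 times input for H3K4me3 in DMSO, against 31.6% of all genes. MMP14 had 2020 and 1751 counts of H3K4me3, or 9.11 times input (interval 7.82 to 10.7) and 9.39 times. Its H3K27me3 was among the lowest, with 107 counts in both libraries and 0.538 times input in DMSO. MMP15 had 1408 and 1304 H3K4me3 counts, or 4.07 and 3.55 times input. MMP25 had 481 and 456, or 3.79 and 4.52 times. Only 9.25% of its span is unshared in the annotation used here, although it had 6.82 input counts per kb in DMSO. MMP17 had 1114 and 1076 H3K4me3 counts, or 3.11 and 2.62 times input, together with 516 and 308 H3K27me3 counts, or 1.60 and 1.11 times. It was the only gene of the 38 at or above 1.5 times input in both, and in MAK683 its H3K27me3 was no longer at that level. The DMSO interval of its H3K27me3 level (1.38 to 1.86) included 1.5. Input CPM of MMP17 was 1.24-fold higher in MAK683, which enters its level over input. Its H3K27me3 CPM in MAK683 was 0.861 times that in DMSO. MMP16 was the exception in this group. It had 2393 and 2422 H3K4me3 counts over 296 kb, or 0.602 and 0.648 times input. The other 4 genes spanned only 12.5 to 23.4 kb, so the contrast runs with gene length, over which H3K4me3 is diluted.

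Of the other MMPs, MMP27 was high in H3K27me3 in DMSO (339 and 193 counts, 1.68 and 1.23 times input). MMP12, the elastase of macrophages, had 232 and 131 counts, or 1.42 and 0.971 times input. MMP20, the protease of enamel, had 1.18 and 1.15 times input, and MMP28, epilysin, 1.09 and 0.833. MMP21 had 0.687 and 0.462 times input. MMP19 had the second lowest H3K27me3 of the 38 genes with 59 and 47 counts, or 0.525 and 0.619 times input. None of these 6 genes was at 1.5 times input for H3K4me3 in DMSO, against 31.6% of all genes. Their highest level there was 1.19 times at MMP28. MMP23B had 6 and 5 counts of H3K27me3, and 18 of H3K4me3 in each treatment. MMP23A, a near-identical copy of MMP23B, had 3 input counts and 3 H3K4me3 counts in all, and reads of this pair cannot be assigned with certainty.

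Within the ADAMTS family, the proteases that cut aggrecan and versican held both the highest H3K27me3 and the highest H3K4me3. ADAMTS15 had 311 and 462 input counts and 1461 and 856 of H3K27me3, or 4.12 times input in DMSO (interval 3.65 to 4.68) and 2.72 times in MAK683 (2.42 to 3.05). ADAMTS8 had 324 and 411 input counts and 1515 and 843 of H3K27me3, or 4.10 (3.64 to 4.65) and 3.01 times (2.67 to 3.39). The 2 genes lie 20.04 kb apart on chromosome 11, and their levels in DMSO did not differ beyond counting error. In MAK683 the input of ADAMTS15 was 1.28-fold higher by CPM, which enters its level over input. ADAMTS9 had 4275 and 2614 H3K27me3 counts, or 2.21 and 1.99 times input, and ADAMTS5 had 785 and 408, or 2.19 and 1.54 times. ADAMTS20 was near input with 0.994 and 1.09 times.

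ADAMTS1 showed the reverse. It had 120 and 135 input counts, 72 and 45 of H3K27me3 and 3049 and 2145 of H3K4me3. H3K4me3 at ADAMTS1 was 20.02 times input in DMSO (interval 16.7 to 24.3) and 15.7 times in MAK683, the highest of the 38 genes in both. H3K27me3 was 0.529 and 0.492 times input. ADAMTS1 lies 72.5 kb from ADAMTS5 on chromosome 21, so that neighbors on the chromosome carried opposite modifications. ADAMTS4 had low levels of both, with 0.528 times input for H3K27me3 and 0.629 for H3K4me3 in DMSO.

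The procollagen N-propeptidases ADAMTS2, ADAMTS3 and ADAMTS14 remove the amino-terminal propeptide of fibrillar collagens. None was high in H3K27me3 in DMSO, against 18.5% of all genes, with 0.850, 0.752 and 0.744 times input. ADAMTS12 and ADAMTS7, which cut cartilage oligomeric matrix protein (COMP), differed from each other. ADAMTS12 had 10027 and 6278 H3K27me3 counts over 368 kb, or 2.04 and 1.77 times input. ADAMTS7 had 490 and 288, or 0.621 and 0.526 times. ADAMTS13, which cuts von Willebrand factor, had 0.530 and 0.484 times input for H3K27me3 and 1.43 and 1.38 times for H3K4me3.

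Among the remaining ADAMTS genes, ADAMTS18 had 4445 and 2781 H3K27me3 counts, or 2.28 (interval 2.16 to 2.42) and 2.06 times input. ADAMTS16 had 3567 and 2541, or 1.77 and 1.87 times. ADAMTS19 had 835 and 588, or 1.78 and 1.502 times, with only 14.1% of its span unshared and the lowest input of the 38 genes per kb. These 3 genes were at 0.507 to 0.577 times input for H3K4me3 in DMSO. ADAMTS17, at 371 kb the longest gene, lay just under the threshold with 1.44 and 1.46 times input for H3K27me3. ADAMTS6, which acts on fibrillin microfibrils, had 0.734 and 0.794 times. ADAMTS10, of the same pathway, was high in H3K4me3 instead, with 1206 and 1021 counts, or 2.75 and 2.02 times input. Its input had 346 and 502 counts, just past the threshold for higher input.

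TIMP2, which inhibits MMPs and also takes part in the activation of MMP2 by MMP14, had the lowest H3K27me3 of the 38 genes in DMSO. It had 549 and 637 input counts, 325 and 247 of H3K27me3 and 1269 and 1165 of H3K4me3. H3K27me3 was 0.520 times input in DMSO (interval 0.452 to 0.598) and 0.569 in MAK683, and H3K4me3 was 1.83 and 1.82 times. The other inhibitors gave no values. TIMP1, TIMP3 and TIMP4, and likewise MMP1, MMP10 and MMP24, had 0 counts in all 6 libraries, and none of their span is free of other genes in the annotation. MMP11 was different, since 100% of its 16.1 kb is unshared. It had 0 input counts in both treatments and 2 H3K4me3 counts in MAK683. MMP11 (chromosome 22, 24110413 to 24126503) ends 2.62 kb before SMARCB1. A count of 0 allows up to 3 counts.

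Of the MMP genes, 7 lie together in 435 kb of chromosome 11, in the order MMP7, MMP20, MMP27, MMP8, MMP3, MMP12 and MMP13. H3K27me3 was above input at 6 of them in DMSO and at 5 in MAK683, against 27.3% and 28.6% of all genes. The interval included 1 at MMP13 in DMSO (0.871 to 1.33), and at MMP7 (0.886 to 1.48) and MMP20 (0.998 to 1.33) in MAK683. The highest levels in DMSO were at MMP8 and MMP27, which are 6.03 kb apart. H3K4me3 was below input at all 7 genes in DMSO, from 0.280 times at MMP3 to 0.705 at MMP8, where 43.8% of all genes were above input. In MAK683 it was above input only at MMP3, with 1.06 times, against 45.8% of all genes. The interval at MMP3 included 1 (0.734 to 1.53), its H3K4me3 counts were below the minimum, and its input was 1.80-fold lower in MAK683. H3K27me3 CPM was lower in MAK683 at 5 of the 7, against 39.9% of all genes. Among the 5 was MMP3, where the direction reversed relative to input (log2 0.27). H3K4me3 CPM was lower at 2 of the 7, MMP27 and MMP8, against 52.4% of all genes. MMP1 and MMP10, without counts, lie in the same interval.

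**Figure D1:**
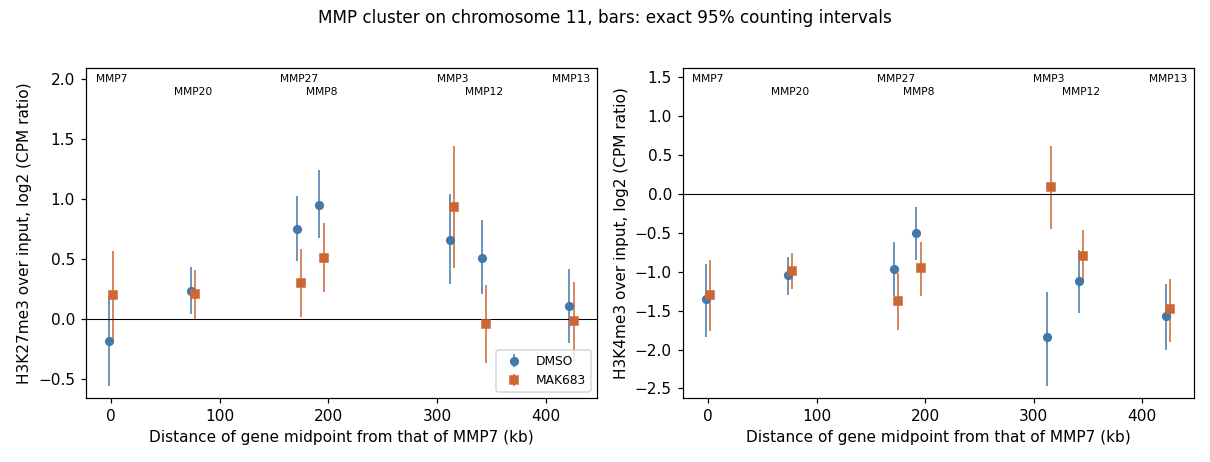
Log2 of H3K27me3 (left) and H3K4me3 (right) CPM over input CPM at the 7 MMP genes with input counts on chromosome 11, against the distance of each gene's midpoint from that of MMP7 in kb, with exact 95% counting intervals (circles DMSO, squares MAK683). H3K27me3 peaks at MMP27 and MMP8 in DMSO, and H3K4me3 lies below input except at MMP3 in MAK683, where the interval includes the input level.

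MAK683 was then compared with DMSO. Of the H3K27me3 reads of both libraries, 40.98% were in MAK683, and of the H3K4me3 reads 47.98%. H3K27me3 was at least 20% lower at 2 of the 38 genes, against 7.84% of 19869 genes tested, and at least 25% higher at 5, against 21.4%. The median log2 change was -0.13 over the 38 genes and 0.089 over all genes. CPM was lower at 23 of the 38 genes, against 39.9% of all genes. These counts depend on the scale between libraries. With counts as deposited, 32 were lower and 0 higher (64.8% and 1.24% of all genes). With median-of-ratios factors, 20 were lower and 1 higher (26.1% and 7.70% of all genes). Below the median change of all genes lay 27 of the 38 genes, a count that none of these common factors can alter.

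The 2 genes with lower H3K27me3 were MMP3 and ADAMTS5. At ADAMTS5 the counts went from 785 to 408, 1.33-fold lower by CPM, and the share in MAK683 was 34.2% (interval 31.5% to 37.0%), below that of the library. At MMP3 they went from 169 to 78, 1.49-fold lower. The input of MMP3 was also lower, by 1.80-fold, and relative to input the direction was reversed (log2 0.27). MMP3 was the only gene of the 38 with input at least 20% lower, against 4.12% of all genes, and ADAMTS15 and ADAMTS10 were the 2 with input at least 25% higher, against 6.43%. Next in order were ADAMTS8, MMP21 and MMP12, with a CPM in MAK683 of 0.802, 0.815 and 0.816 times that in DMSO, none of them past the threshold. For MMP21 (82 and 46 counts) and MMP12 the intervals of the share included that of the library. For ADAMTS8 the share was 35.8% (33.8% to 37.7%).

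The 5 genes with higher H3K27me3 CPM were MMP9, MMP14, MMP16, ADAMTS2 and MMP7, and all were below input in DMSO, although the intervals of MMP9 and MMP7 included 1. MMP9 was 1.58-fold higher, MMP14 1.44-fold, MMP16 1.35-fold, ADAMTS2 1.32-fold and MMP7 1.31-fold. As deposited, their counts were higher in MAK683 only at MMP9 (52 and 57). They were equal at MMP14 (107 and 107) and lower at MMP16 (1944 and 1821), ADAMTS2 (2834 and 2596) and MMP7 (122 and 111). The H3K27me3 level remained below input in MAK683 at MMP14 and MMP16, and was 1.07 times at ADAMTS2.

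H3K4me3 was at least 20% lower at 1 of 37 genes, against 8.77% of 22042 genes tested, and at least 25% higher at 6, against 12.6%. The median log2 change was 0.13 over the 37 genes and -0.015 over all genes. CPM was higher at 29 of the 37 genes, against 47.6% of all genes. With median-of-ratios factors the median became -0.051 over the 37 genes and -0.20 over all genes, with 3 genes higher and 3 lower (5.18% and 31.1% of all genes). As deposited, 4 were higher and 3 lower (7.09% and 20.9% of all genes).

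MMP19, with 74 and 121 H3K4me3 counts, was 1.76-fold higher by CPM, and its share in MAK683 was 62.1% (interval 54.8% to 68.9%). MMP9 was 1.72-fold higher (54 and 86 counts, share 52.8% to 69.5%) and MMP12 1.48-fold (83 and 114, 50.6% to 64.9%). These 3 genes had few reads. The long genes ADAMTS2 and ADAMTS17 were measured with far more. ADAMTS2 had 4123 and 5230 counts, 1.38-fold higher, with a share of 55.9% (54.9% to 56.9%). ADAMTS17 had 4310 and 5291, 1.33-fold higher, with a share of 55.1% (54.1% to 56.1%). MMP2 was 1.26-fold higher, just past the threshold. In MAK683, H3K4me3 at these 6 genes was 0.574 to 1.46 times input, so none reached 1.5 times input over the whole gene.

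The gene with lower H3K4me3 was ADAMTS1, 1.31-fold lower, with a share in MAK683 of 41.3% (interval 40.0% to 42.7%). It was the gene with the highest level and remained so. MMP8 and MMP27 were 1.20-fold and 1.19-fold lower, ADAMTS10 1.09-fold and MMP14 1.06-fold, which did not pass the threshold. MMP8 and MMP27 were also lower in H3K27me3, by 1.19-fold and 1.22-fold, likewise short of the threshold. Across the 37 genes the changes of the 2 modifications had a Spearman rho of 0.042, a description over genes that share 4 libraries. ADAMTS2 and MMP9 were called higher in both. The plot of both changes shows this scatter.

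The 14 genes high in H3K27me3 in DMSO were followed in both libraries. H3K27me3 CPM was lower in MAK683 at 12 of them, and likewise at 91.3% of the 3926 genes of the table that were as high. Their median log2 change was -0.23, and -0.19 over the 3926 genes. Past the threshold, 2 of the 14 were lower (14.3%), against 19.5% of the 3926. Relative to library totals, the level remained at least 1.5 times input at 10 of the 14 (71.4%), against 81.6%. MMP8, MMP26, MMP27 and MMP17 were the 4 that did not remain. In MAK683 the intervals of MMP8 (1.17 to 1.74) and MMP26 (1.37 to 1.51) included 1.5, and those of MMP27 and MMP17 did not. ADAMTS19 was counted as remaining at 1.502 times input (1.34 to 1.69). Input CPM in MAK683 was 1.03 to 1.24 times that in DMSO at the 4 genes, which enters their levels. H3K4me3 CPM was higher at 12 of the 14, and at 78.8% of the 3926 genes. Past the threshold it was higher at 1 of the 13 with enough counts, MMP2 (7.69%), against 29.2%. The 14 genes were chosen by the DMSO libraries that also enter the change, so the lower values are a description only. CPM in each library is plotted for 8 of the genes.

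Other genes of pericellular proteolysis were taken from lists of plasminogen system genes, regulators of MMPs, ADAMTS-like genes, ADAM proteases and matrix substrates, 39 genes in all. H3K27me3 was at least 1.5 times input in DMSO at 10 of 34 with enough input, against 18.5% of all genes, and H3K4me3 at 7 of 34, against 31.6%. In MAK683 these were 8 and 7, against 15.9% and 30.4%. H3K27me3 was at least 20% lower at 2 of 34, ADAMTSL5 and COMP, against 7.84% of all genes. ADAMTSL5 had only 75 and 37 H3K27me3 counts, and the interval of its share in MAK683 (24.4% to 42.6%) included that of the library. Its input was 1.41-fold higher in MAK683. Only 35.0% of its span is unshared in the annotation used here, although it had 12.5 input counts per kb in DMSO. COMP, a substrate of ADAMTS7 and ADAMTS12, had 308 and 141 H3K27me3 counts (2.06 and 1.51 times input) and was high in H3K4me3 as well (484 and 472 counts, 2.91 and 3.42 times input). H3K27me3 was at least 25% higher at 7 of 34, a share close to the 21.4% of all genes. PLAUR, the urokinase receptor, was among them at 1.52-fold.

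H3K4me3 was at least 25% higher at 7 of 36 genes of these lists, against 12.6% of all genes. It was at least 20% lower at 2, PLAU and ADAMTSL5, against 8.77%. ADAM19, with 1170 and 1534 H3K4me3 counts, was 1.42-fold higher, and its H3K27me3 was 2.82 times input in DMSO and 2.23 in MAK683. PLG, the plasmin precursor, was 1.34-fold higher in H3K4me3, while the matrix substrates ACAN and FN1 were 1.28-fold higher each. PLAU, urokinase, had 67 and 34 H3K4me3 counts, but only 9.52% of its span is unshared, with 1.32 input counts per kb in DMSO. For ADAMTSL5 the unshared share was 35.0%, although it had 12.5 input counts per kb.

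CG content of the promoter window was set beside the levels for the 19 genes with 1 window and enough input. A split at 15 CG, chosen after the values were seen, gave 10 genes at or above and 9 below. The median log2 level of H3K27me3 in DMSO was -0.022 in the first and -0.19 in the second, and that of H3K4me3 was -0.70 and -0.79. Over all genes with 1 window and enough input the medians were -0.94 and -0.39 for H3K27me3, and 0.61 and -0.74 for H3K4me3, with 6043 genes at or above 15 CG and 2290 below. At 15 CG or more, the median H3K4me3 level thus lay below input for the 10 genes and above it for all such genes. Of the windows printed above, ADAMTS18 and MMP15 are both rich in CG, yet their genes had log2 H3K4me3 levels of -0.98 and 2.03. Of the 6 genes among the 19 that were high in H3K27me3, ADAMTS12, ADAMTS18 and ADAMTS19 had 24 to 30 CG, while MMP8, MMP26 and MMP27 had 0 to 2. MMP14, with the highest H3K4me3 of the 19, had 10 CG. Spearman rho of the CG count was -0.17 with H3K27me3 and 0.35 with H3K4me3 (n = 19, a description over genes that share libraries). The counts cover whole genes and do not resolve the window itself, and the 19 genes and all genes were not matched for length.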

How the data were processed

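ChIP-seq of G401 cells was analysed, with 1 library of input, H3K27me3 and H3K4me3 for each of DMSO and MAK683. The authors trimmed the reads (Trim Galore 0.4.4 in the submitters' processing notes), aligned them with Bowtie2 to hg19, removed repeated reads with Picard 2.23.6 and deposited raw counts per gene made by featureCounts. The counting annotation is not given in the sources used here. The methods also describe a Drosophila spike-in, but the deposited counts do not carry it.

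CPM, ratios and exact intervals were computed from the counts (Python 3.11.15, numpy 2.4.6, pandas 2.3.3, scipy 1.17.1, matplotlib 3.10.9), with pseudocounts of 0.5 counts for levels and 1 count for changes. The computation was tested on simulated counts with counting error only and changes far larger than the threshold for a call. That test does not show how reliable calls near the threshold or at genes with few reads are. With 1 library per group no test was made. Gene coordinates and shared spans come from GENCODE 44 on GRCh37, which has the build of hg19 and may differ from the annotation counted. Promoter windows come from RefSeq.

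The genes, lists and thresholds were chosen with earlier results of these data known. Each gene was named at least once. MMP2, MMP10, the TIMPs, the 5 highest and lowest H3K27me3 levels and the 5 largest changes of each modification in each direction were described more fully, with at most 5 genes of the other lists per modification and direction. Alternatives were other scales, pseudocounts, count minimums, thresholds, backgrounds and the removal of genes mostly shared with others.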

Additional observations from a re-analysis of the deposited data

How the results depend on the processing

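Scale, threshold and count minimum moved the numbers of genes called. For H3K27me3 over input, a threshold of 2 times input gave 7 genes in DMSO and 4 in MAK683 (10.7% and 6.76% of all genes), and subtracting the median of all genes gave 22 and 20 (30.1% and 28.1%). For H3K4me3 over input, requiring 500 input counts left 4 of 25 genes high in each treatment (25.9% and 23.9% of all genes). For the change of H3K27me3, 32 genes were lower with counts as deposited and 20 with median-of-ratios factors (64.8% and 26.1% of all genes). For the ratio to input 9 were lower (12.9%), with 500 counts 1 of 25 (4.82%) and at 1.5-fold 0 (1.84%). Higher were 0 as deposited and 1 with median-of-ratios factors (1.24% and 7.70%). With 500 counts 2 of 25 were higher (14.8%), and at 1.5-fold 1 (5.67%). Of all genes high in H3K27me3 in DMSO, 19.5% were lower and 0.178% higher. For the change of H3K4me3, 3 genes were lower as deposited and 3 with median-of-ratios factors (20.9% and 31.1% of all genes). For the ratio to input 4 were lower (15.4%), and at 1.5-fold 0 (1.09%). Higher were 3 with median-of-ratios factors (5.18%), 3 of 27 with 500 counts (7.04%) and 2 at 1.5-fold (3.65%). Among genes called changed, the log2 change of H3K27me3 reversed to 0.27 at MMP3 for the ratio to input, and with counts as deposited was 0 at MMP14, -0.094 at MMP16, -0.13 at ADAMTS2 and -0.14 at MMP7. The values with counts as deposited differ from those by CPM only by a common factor. At MMP3 the input was 1.80-fold lower in MAK683, in a single library per treatment, and this enters the ratio to input. Under the alternatives, 44 other counts and shares stayed within 1.5 times. No paired analysis was possible because each treatment and antibody had 1 library.

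Each value rests on 1 library, and intervals leave out differences between chromatin preparations. Genes with few reads, such as MMP9 and MMP19, had wide intervals. Whole-gene counts dilute a modification confined to a promoter in long genes such as ADAMTS17 and MMP16, and reads shared with overlapping genes could not be recovered.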
